A study of Homo sapiens with 8 samples.

Results

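The genes described here encode the nuclear subunits of oxidative phosphorylation. They were taken as the protein-coding genes whose symbols follow the naming pattern of the 5 complexes (NDUFA, NDUFB, NDUFC, NDUFS and NDUFV for complex I, SDH for II, UQCR for III, COX4 to COX8 for IV, and ATP5 for V). Each needed a probe set, the group of probes that reads a transcript, that named no other gene, and the probe set with the highest mean signal stood for the gene. This gave 76 genes, out of 19775 that had their own probe set. Complex I had 32, complex II had 3, complex III had 6, complex IV had 17 and complex V had 18. The rule used symbols and mean signal only, not any comparison between groups, but it was set with earlier results of these data known.

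The signals came from 8 Affymetrix expression arrays of total RNA from human embryonic stem cells, named in the labels as H9, an established line kept in mTeSR medium. The 4 groups had 2 arrays each: embryoid bodies with 20 mM ethanol, embryoid bodies with 0 mM ethanol, undifferentiated cells with 20 mM ethanol and undifferentiated cells with 0 mM ethanol, with 24 h of exposure. Embryoid bodies are aggregates in which pluripotent cells differentiate into mixed cell types, and the labels give no age for them. The labels do not say whether the paired arrays, A and B, were grown as separate cultures, and the p-values below measure the spread between these arrays only, which may be technical.

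Oxidative phosphorylation makes ATP in the inner mitochondrial membrane. Complexes I and II pass electrons from NADH and succinate to ubiquinone, complex III passes them on to cytochrome c, and complex IV hands them to oxygen. Complexes I, III and IV pump protons, and complex V, the ATP synthase, lets the protons back to drive ATP formation. The subunits measured here are encoded in the nucleus and join others encoded in mitochondrial DNA, which lie outside the naming pattern. Pluripotent stem cells are known for strong use of glycolysis beside respiration, and cells often remodel their mitochondria as they differentiate.

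The promoters of 7 members follow, because the results turn on these genes or on a contrast between them. NDUFA7 and NDUFA9 had the lowest and the highest stage values of complex I. SDHD had the lowest of complex II with and without ethanol. UQCR11 had the lowest of complex III without ethanol only, and ATP5PO the lowest of complex V with ethanol only. COX6A1 and COX6A2 are the ubiquitous and the muscle form of one subunit. Each window of 300 bases runs 5′ to 3′ across the gene's start in RefSeq's annotation of GRCh38.p14, with most of it before the start. Capitals mark matches on either strand to GCGC, 1 base of any kind and TGCGC (the NRF1 motif), CCGGAAG (the ETS motif, read by GABP) or AAGATGG (the YY1 motif).
NDUFA7, chr19:8321326-8321625, minus strand: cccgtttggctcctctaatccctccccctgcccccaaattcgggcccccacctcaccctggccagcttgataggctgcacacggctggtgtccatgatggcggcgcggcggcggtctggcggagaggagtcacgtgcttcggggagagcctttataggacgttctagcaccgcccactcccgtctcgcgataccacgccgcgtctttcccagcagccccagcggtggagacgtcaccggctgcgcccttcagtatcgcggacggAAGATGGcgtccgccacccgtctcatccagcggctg
NDUFA9, chr12:4648864-4649163, plus strand: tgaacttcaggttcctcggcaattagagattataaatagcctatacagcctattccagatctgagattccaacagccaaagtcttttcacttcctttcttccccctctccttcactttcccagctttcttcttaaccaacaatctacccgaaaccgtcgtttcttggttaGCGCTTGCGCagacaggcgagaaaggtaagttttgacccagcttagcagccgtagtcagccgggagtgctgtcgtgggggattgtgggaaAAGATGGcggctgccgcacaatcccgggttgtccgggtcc
SDHD, chr11:112086623-112086922, plus strand: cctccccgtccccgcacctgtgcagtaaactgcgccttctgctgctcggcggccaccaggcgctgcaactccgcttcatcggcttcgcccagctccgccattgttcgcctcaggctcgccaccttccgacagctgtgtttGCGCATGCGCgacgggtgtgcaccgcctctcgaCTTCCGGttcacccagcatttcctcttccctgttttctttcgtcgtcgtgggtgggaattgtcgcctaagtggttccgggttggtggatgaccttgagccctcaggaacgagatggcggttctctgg
UQCR11, chr19:1605413-1605712, minus strand: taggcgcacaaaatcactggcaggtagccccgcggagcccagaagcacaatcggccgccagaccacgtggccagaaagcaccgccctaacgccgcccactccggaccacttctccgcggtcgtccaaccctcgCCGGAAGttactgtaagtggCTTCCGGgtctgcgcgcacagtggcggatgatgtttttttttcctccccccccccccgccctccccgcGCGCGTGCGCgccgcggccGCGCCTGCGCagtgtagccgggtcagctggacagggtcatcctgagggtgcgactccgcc
COX6A1, chr12:120437863-120438162, plus strand: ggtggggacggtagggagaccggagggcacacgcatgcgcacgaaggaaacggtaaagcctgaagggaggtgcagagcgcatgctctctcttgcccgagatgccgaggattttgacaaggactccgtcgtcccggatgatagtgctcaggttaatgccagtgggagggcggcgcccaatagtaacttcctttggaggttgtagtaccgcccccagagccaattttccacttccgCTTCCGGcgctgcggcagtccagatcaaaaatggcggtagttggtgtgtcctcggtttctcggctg
COX6A2, chr16:31428311-31428610, minus strand: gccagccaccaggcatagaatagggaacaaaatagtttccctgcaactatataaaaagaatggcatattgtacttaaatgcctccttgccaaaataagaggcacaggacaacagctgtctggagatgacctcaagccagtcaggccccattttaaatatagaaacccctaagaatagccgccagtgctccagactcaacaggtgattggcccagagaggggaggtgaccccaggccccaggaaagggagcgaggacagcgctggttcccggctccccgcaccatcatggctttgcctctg
ATP5PO, chr21:33915755-33916054, minus strand: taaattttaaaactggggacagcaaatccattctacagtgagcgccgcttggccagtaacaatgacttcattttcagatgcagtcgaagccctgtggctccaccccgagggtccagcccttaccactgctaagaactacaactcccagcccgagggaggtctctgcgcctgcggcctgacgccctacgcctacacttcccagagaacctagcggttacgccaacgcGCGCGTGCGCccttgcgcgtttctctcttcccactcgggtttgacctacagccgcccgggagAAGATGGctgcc

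NRF1, GABP and YY1 are transcription factors known as regulators of nuclear genes for mitochondrial proteins. NDUFA9 and SDHD both held an NRF1 match, UQCR11 held 2 of them and 2 ETS matches, and COX6A2 held none of the 3 motifs. RefSeq windows matched 65 of the 76 members, with 78 windows in all because some genes have several. The NRF1 motif lay in 20.5% of the members' windows, against 5.78% of 35116 windows of all genes and 11.8% of 1736 windows of other genes in the brightest signal decile. The ETS motif lay in 25.6%, against 10.3% and 17.8%. The YY1 motif lay in 23.1%, against 5.84% and 9.16%. At least 1 of these 3 was in 53.8% of the members' windows, against 19.6% of all windows and 33.5% of those of the other bright genes. The GC box (GGGCGG) lay in 62.8%, against 45.0% and 67.7%, and TATAAA in 8.97%, against 11.5% and 7.83%. Both strands were searched, and an ETS match can share its last letters with a YY1 match. These are letter matches and not measured binding sites. The members ATP5F1B, ATP5F1D, ATP5MC3, ATP5MF, COX4I2, COX6C, COX7A1, NDUFB5, NDUFB9, SDHC and UQCRB had no window to search.

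Testing was limited to genes brighter than the array's median signal on 2 or more arrays, which left 72 of the 76 members among 14079 genes. All members of complexes I, II and III were tested. The 4 left out were ATP5MF, whose only probe set of its own was dim, and COX7A1, COX7B2 and COX8C. By mean signal over the 8 arrays, 51 of the tested members fell in the brightest decile of the tested genes (decile 10), 15 in decile 9, 3 in decile 8 and 3 in deciles 1 and 2. The 3 dim ones were COX4I2, COX6A2 and COX6B2. COX6A2 entered the test only through undifferentiated arrays: it was above the array's median on those 4 and below it on all 4 embryoid body arrays. COX6B2 also needed undifferentiated arrays to enter. Among embryoid body arrays it passed the median only on array B without ethanol, at 95.5 against 83.2. In this data set the change of a gene moved with its brightness, so the members' medians over all complexes are also set against those of other genes of like signal.

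Over all arrays, the median signal was 102 on both embryoid body arrays with ethanol, 83.2 and 85.1 on those without, 74.1 and 79.4 on undifferentiated arrays with ethanol, and 69.2 and 70.8 on those without. A transcript check of the named line did not match on 4 of the 8 arrays, all of 1 stage, so a difference between the stages cannot be told apart from a difference between cell lines. Of 14 pluripotency markers, 12 had a probe set. Their summed signal was 101000 and 96700 in embryoid bodies with ethanol, 113000 and 111000 in embryoid bodies without, and 150000 to 159000 in undifferentiated cells. Hepatic and yolk sac markers summed to 59500 and 57600, 44200 and 43900, and 898 to 1420 in the same order of groups. Mesenchyme markers summed to 124000 and 121000, 103000 and 99700, and 26400 to 28300. The part of these shifts in cell makeup in any result below was not tested. In such bulk RNA, fewer cells that carry a transcript and less of it per cell cannot be told apart.

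Between the stages, signals of nearly all subunit genes were lower in embryoid bodies than in undifferentiated cells. With ethanol in both, 60 of 72 members fell, 1 rose and 11 were not called, while 56.3% of all tested genes were called, 27.1% lower and 29.2% higher. Without ethanol in either, 47 of 72 fell, 1 rose and 24 were not called, against 52.7% called among all tested genes, 24.7% lower and 28.0% higher. A call is a Benjamini-Hochberg adjusted p under 0.05 in limma, fitted on all arrays and adjusted over the 14079 genes. The member that rose was NDUFA9 in both comparisons, and the 47 that fell without ethanol include COX6A2, which entered through the undifferentiated arrays alone. These comparisons share no array, and 45 members fell in both, which is 75% of those that fell with ethanol and 95.7% of those that fell without. Without ethanol the count of 48 called members was 25 when either embryoid body array was left out, 30 without undifferentiated array A and 31 without array B. With cyclic loess normalisation 30 members were called with ethanol and 29 without. Of the 61 values called with ethanol, 13 no longer lay below 0 when all probe sets of a gene were averaged, 14 when probe sets ending in _x_at or _s_at were left out and 6 with cyclic loess. Of the 48 called without ethanol, 10 and 8 no longer lay below 0 under the first and second of these.

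The median log2 change of the members was -0.42 with ethanol and -0.34 without, where the median over all tested genes was 0.02 in both. Bright genes as a whole had lower values in embryoid bodies. In the brightest decile the members' median was -0.42 with ethanol, against -0.28 for the 1357 other genes, and 47 of 51 members were called, against 71.7% of the others. Without ethanol the decile's medians were -0.35 for members and -0.20 for the others, and 35 of 51 members were called, against 62.4%. Set against the median of other genes in its own decile, 63 of 72 members lay below and 8 above with ethanol, and 52 below and 15 above without. By complex, the median distance from that value with ethanol was -0.19 for I, -0.32 for II, -0.12 for III, -0.27 for IV and -0.08 for V. Without ethanol it was -0.14, -0.13, -0.16, -0.23 and -0.13 in the same order. The values for complex IV include the dim COX4I2, COX6A2 and COX6B2 of deciles 1 and 2. COX6A2 and COX6B2 would not have been tested without the undifferentiated arrays, where they were higher. Without ethanol the members' medians in these deciles were -0.98 and -0.90, against 0.18 and 0.10 for the other genes. With ethanol they were -0.51 and -0.07, against 0.35 and 0.27. The groups of arrays did not overlap for 69 members with ethanol and 68 without, 95.8% and 94.4% of those tested, against 77.2% and 78.4% of all tested genes.

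**Figure D1:**
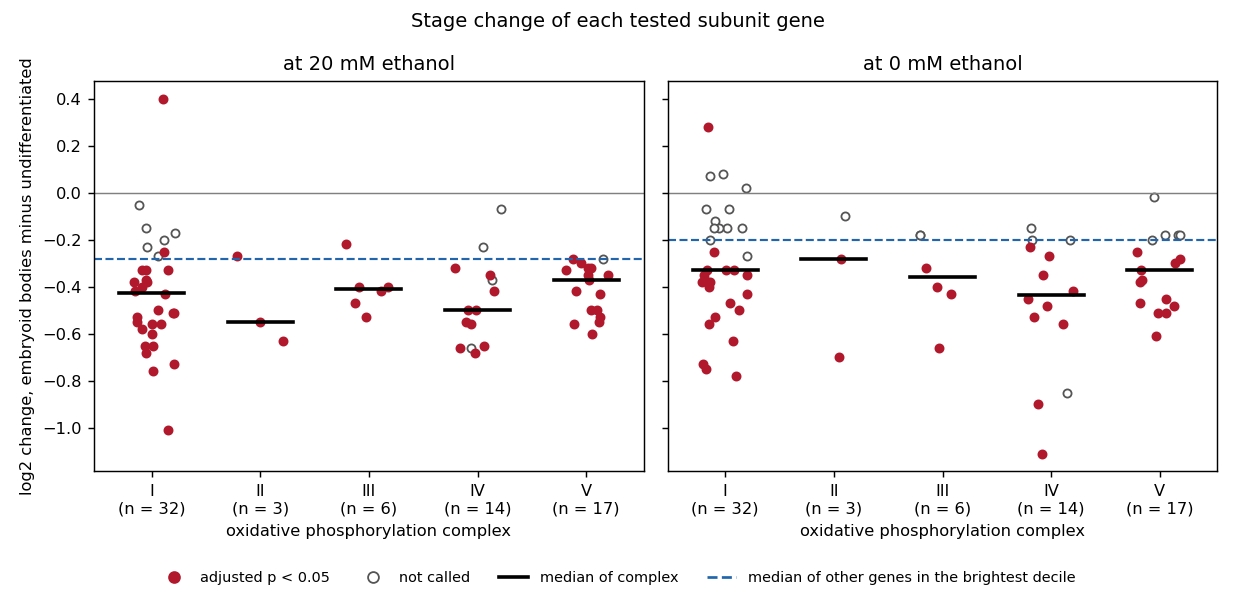
Log2 change of each tested subunit gene, embryoid bodies minus undifferentiated cells, at 20 mM (left) and 0 mM ethanol (right), grouped by complex I to V on the x axis. Filled points passed an adjusted p of 0.05 in limma, open points did not, black bars are complex medians and the dashed line is the median of the 1357 other genes in the brightest decile. Most points lie under that line, and the filled point above 0 in each panel is NDUFA9.

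Complex I takes electrons from NADH. Of its 32 members, 25 fell and 1 rose with ethanol, with a median log2 change of -0.42, and 19 fell and 1 rose without, with a median of -0.33. Among all tested genes 27.1% were called lower with ethanol and 24.7% without. NDUFA7, an accessory subunit of the matrix arm, had signals of 1780 and 1820 in embryoid bodies with ethanol and 2240 and 2400 without, against 3720 and 3550 in undifferentiated cells with ethanol and 3890 and 4070 without. All 4 embryoid body arrays lay below all 4 undifferentiated arrays. Its log2 change between the stages was -1.01 ± 0.07 (SE, n = 2 arrays a group; limma adjusted p = 0.000236) with ethanol and -0.78 ± 0.07 (adjusted p = 0.000622) without. Averaging in its second, dim probe set, which had 2.12% of this one's mean signal, gave a change of 0 with ethanol.

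NDUFA9, an accessory subunit beside the ubiquinone site, went the other way. Its signals were 2570 and 2510 in embryoid bodies with ethanol and 2290 on both arrays without, against 1860 and 2000 in undifferentiated cells with ethanol and 1950 and 1820 without. It rose by a log2 value of 0.40 ± 0.07 (SE; limma adjusted p = 0.0058) with ethanol and 0.28 ± 0.07 (adjusted p = 0.022) without. With each array centred on its median signal these values were -0.02 and 0.02. The rise without ethanol was no longer called when either embryoid body array, or undifferentiated array B, of the 0 mM groups was left out. NDUFB11, an accessory subunit of the membrane arm, had 5620 and 5250 with ethanol and 6170 and 6310 without in embryoid bodies, against 5750 and 5500 with and 6030 and 5890 without in undifferentiated cells. Its log2 changes of -0.05 and 0.07 were not called.

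The 3 genes of the flavoprotein end of complex I, where NADH is oxidised, were lower in embryoid bodies, as was most of the complex. Of its 32 members, 31 lay below 0 with ethanol and 28 without. NDUFV2, a core subunit that holds an iron-sulfur cluster, had 4570 on both embryoid body arrays with ethanol and 5250 on both without, against 7410 and 7240 in undifferentiated cells with ethanol and 8130 and 7080 without. It fell by 0.68 on the log2 scale (SE 0.08, limma adjusted p = 0.00133) with ethanol and by 0.53 (adjusted p = 0.0037) without. NDUFV1, which carries the flavin, fell by 0.33 and 0.25 (adjusted p = 0.0178 and 0.0493), less than the complex medians of -0.42 and -0.33. Its value with ethanol was 0.28 when averaged with a second probe set at 0.492% of this one's signal. NDUFV3, a small accessory subunit of the same module, had 2450 and 2190 with ethanol and 2570 and 2340 without in embryoid bodies, against 3550 and 3470 with and 4270 and 3980 without in undifferentiated cells. It fell by 0.60 (adjusted p = 0.00286) with ethanol and by 0.75 (adjusted p = 0.00153) without. For NDUFV2 and NDUFV3 every embryoid body array lay below every undifferentiated array.

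Among other core subunits, NDUFS1, which holds several iron-sulfur clusters, fell by 0.53 with ethanol and by 0.33 without (limma adjusted p = 0.00456 and 0.0273), and its value with ethanol was 0.08 without _x_at and _s_at probe sets. NDUFS7 and NDUFS3, core subunits of the arm that reaches ubiquinone, had log2 changes of -0.27 and -0.17 with ethanol and -0.15 for both without, none of them called. NDUFA1, a small membrane subunit, had 5620 and 5750 with ethanol and 5890 and 5500 without in embryoid bodies, against 9120 and 7760 with and 9330 and 9550 without in undifferentiated cells. It fell by 0.56 with ethanol (adjusted p = 0.00425) and by 0.73 without (adjusted p = 0.00192), with no overlap between the stages. NDUFC1 fell by 0.51 with ethanol on signals of 5250 on both embryoid body arrays, against 7410 and 7590 (adjusted p = 0.0012). NDUFB6 fell by 0.56 with ethanol, on 5500 and 5250 in embryoid bodies against 8130 and 7760 (adjusted p = 0.00205). Its other probe set, with 1.08% of this one's signal, changed by 1.36 in the same comparison and by 1.11 without ethanol. Within the NDUFB group the values with ethanol spread widely, from NDUFB7 at -0.76 to NDUFB11 at -0.05. NDUFB11 was not called, nor was NDUFB3 at -0.15. Without _x_at and _s_at probe sets NDUFB7 was at 0.27.

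Complex II, succinate dehydrogenase, feeds electrons from the citric acid cycle. Its 3 members measured here all fell with ethanol, and SDHC and SDHD, the membrane anchors, also fell without. The shares of all tested genes called lower were 27.1% and 24.7%. SDHD had 3980 and 4070 with ethanol and 3800 on both arrays without in embryoid bodies, against 6760 and 5750 with and 6460 and 5890 without in undifferentiated cells. It fell by 0.63 with ethanol (SE 0.10, limma adjusted p = 0.00312) and by 0.70 without (adjusted p = 0.00252). Averaged with its other probe set, whose signal was 0.14% of this one's, SDHD gave 0.91 and 0.38 in these comparisons. SDHC had 2000 and 2090 with ethanol and 2450 and 2570 without in embryoid bodies, against 3090 and 2880 with and 2880 and 3240 without in undifferentiated cells. It fell by 0.55 (adjusted p = 0.00324) and by 0.28 (adjusted p = 0.0385). The 4 brightest of its 7 probe sets all had values below 0 in both comparisons, between -0.55 and -0.27. SDHA, the flavoprotein that oxidises succinate, had 1740 on both embryoid body arrays with ethanol, against 2000 and 2190 in undifferentiated cells, and fell by 0.27 (adjusted p = 0.0307). Its value without ethanol, -0.10, was not called. The stages did not overlap for SDHD, SDHC or SDHA, and the gap was narrow for SDHA.

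All 6 complex III members fell with ethanol and 4 fell without, with medians of -0.41 and -0.36. Of all tested genes, 27.1% and 24.7% were called lower, and of the 1357 other genes in the brightest decile, 741 and 610. UQCR11, a small subunit, had 5620 and 6030 with ethanol and 5890 and 6030 without in embryoid bodies, against 7590 and 7940 with and 9330 and 9550 without in undifferentiated cells. It fell by 0.42 with ethanol (SE 0.07, limma adjusted p = 0.00433) and by 0.66 without (adjusted p = 0.000959). UQCRB, which binds ubiquinone, had 10700 and 10200 with ethanol and 12300 and 11700 without in embryoid bodies, against 15500 and 14800 with and 16600 and 15800 without in undifferentiated cells. It fell by 0.53 and 0.43 (adjusted p = 0.00178 and 0.0044). UQCR11 and UQCRB were lower on all 4 embryoid body arrays than on any undifferentiated array. UQCRC1, a core protein, fell by 0.47 and 0.32 (adjusted p = 0.00226 and 0.0107). UQCRC2, the other core protein, fell by 0.40 in both comparisons (adjusted p = 0.00562 with ethanol and 0.00629 without). A dim probe set of UQCRC2, at 1.06% of the brightest, turned its averaged value to 0.04 and 0.43. UQCR10 and UQCRQ, both small subunits, fell by 0.40 and 0.22 with ethanol and were at -0.18 without, not called. With ethanol UQCR10 was at 0.29 with its probe sets averaged and at 0.98 without _x_at and _s_at probe sets, and UQCRQ was at 0.03 with cyclic loess.

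Complex IV, cytochrome c oxidase, had a median log2 change of -0.50 with ethanol and -0.43 without, with 10 of its 14 tested members lower in each. Of all tested genes, 27.1% and 24.7% were called lower. The 10 without ethanol include the dim COX4I2 and COX6A2, the second tested only through undifferentiated arrays, and neither was called with ethanol. The dim COX6A2, COX4I2 and COX6B2 had the lowest values of the complex without ethanol, -1.11, -0.90 and -0.85, and enter its median. COX6B2, like COX6A2, passed the filter only because of undifferentiated arrays, so the low values of both are a description. COX6B1, which faces the intermembrane space, had 4680 on both embryoid body arrays with ethanol and 5750 and 5620 without, against 7760 and 6920 in undifferentiated cells with ethanol and 7940 and 7590 without. It fell by 0.65 (SE 0.08, limma adjusted p = 0.00133) and by 0.45 (adjusted p = 0.00578). COX8A, a small membrane subunit, had 7410 and 6920 with ethanol and 8320 and 8130 without in embryoid bodies, against 11700 and 11000 with and 12300 and 11500 without. It fell by 0.66 and 0.53 (adjusted p = 0.00116 and 0.00297). COX5A had 12600 and 12000 with ethanol and 13800 and 12900 without in embryoid bodies, against 18600 and 17400 with and 19100 and 18200 without. It fell by 0.55 and 0.48 (adjusted p = 0.00216 and 0.00399). For COX6B1, COX8A and COX5A the highest embryoid body array lay below the lowest undifferentiated one. COX7B fell by 0.56 in both comparisons (adjusted p = 0.00252 and 0.00293).

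COX7A2L is no fixed subunit but a related protein that joins complexes III and IV into supercomplexes. It had 4900 and 4790 with ethanol and 6310 and 5890 without in embryoid bodies, against 7940 and 7590 with and 8510 and 7760 without in undifferentiated cells. It fell by 0.68 (SE 0.08, limma adjusted p = 0.00112) and by 0.42 (adjusted p = 0.00768). The gene once named NDUFA4, now COXFA4 and so outside the naming pattern, is a complex IV subunit. It fell by 0.50 with ethanol and by 0.60 without (adjusted p = 0.00291 and 0.00177).

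Several complex IV subunits have a second form known from heart, muscle, lung or testis. The ubiquitous forms were bright on all arrays, while the tissue forms lay near or below the arrays' medians. COX6A1, the ubiquitous form, had 17000 and 14800 with ethanol and 16600 and 16200 without in embryoid bodies, against 20000 and 17400 with and 19100 and 18600 without. Its log2 changes of -0.23 and -0.20 were not called. COX6A2, the heart and muscle form, had 69.2 and 89.1 with ethanol and 49.0 and 52.5 without in embryoid bodies, against 95.5 and 107 with and 126 and 95.5 without. Since only the undifferentiated arrays brought it into the test, its log2 values of -1.11 without ethanol and -0.37 with it are given as a description. COX4I2, known from lung, had 120 and 135 with ethanol and 47.9 and 85.1 without in embryoid bodies, against 120 and 148 with and 102 and 138 without. It fell by 0.90 without ethanol (adjusted p = 0.0477) and had -0.07 with it. COX6B2, a testis form, had values between 49.0 and 145, also needed undifferentiated arrays to be tested and was not called. COX7A1, COX7B2 and COX8C, the forms not tested, had signals of 3.63 to 60.3 on all arrays.

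COX4I1, the ubiquitous partner of COX4I2, had 12900 and 11500 with ethanol and 15100 and 15500 without in embryoid bodies, against 18200 and 16200 with and 17800 and 16200 without. It fell by 0.50 with ethanol (SE 0.10, limma adjusted p = 0.00775) and had -0.15 without (adjusted p = 0.256). Without _x_at and _s_at probe sets its value with ethanol was 0.95, from a probe set at 1.17% of the brightest one's signal. Its second brightest probe set, at 63.5%, was at -0.38. COX7A2, the ubiquitous partner of COX7A1, fell by 0.32 with ethanol (adjusted p = 0.0193) and had -0.20 without (adjusted p = 0.0864). With cyclic loess its value with ethanol was 0.03.

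Complex V had 16 of 17 tested members lower with ethanol and 12 lower without, with medians of -0.37 and -0.33. Among all tested genes 27.1% and 24.7% were called lower, and among the 1357 other genes of the brightest decile 741 and 610. The median distance of its members from other genes of like signal was -0.08 with ethanol and -0.13 without. ATP5PO, the stalk protein that ties the catalytic head to the membrane part, had 10700 and 9770 with ethanol and 12300 and 12600 without in embryoid bodies, against 16200 and 14800 with and 15500 and 14800 without in undifferentiated cells. It fell by 0.60 (SE 0.08, limma adjusted p = 0.00209) and by 0.28 (adjusted p = 0.0347). Averaged with 2 dimmer probe sets of 9.62% and 0.168% of this signal, its value was 0.88 with ethanol and 0.85 without. ATP5PD, subunit d of the stalk, had 11000 and 10200 with ethanol and 12900 and 12300 without in embryoid bodies, against 16200 and 14800 with and 15500 on both arrays without. It fell by 0.55 and 0.30 (adjusted p = 0.00234 and 0.0238). Its other probe set, at 1.49% of this one's signal, had 1.18 with ethanol and 1.33 without, and the averages were 0.32 and 0.51. For both stalk genes the embryoid body arrays with ethanol were the lowest of all, and those without lay between them and the undifferentiated arrays.

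ATP5ME, subunit e of the membrane part, had 8130 and 8320 with ethanol and 8710 and 8510 without in embryoid bodies, against 11500 and 10700 with and 12300 on both arrays without. It fell by 0.43 (SE 0.07, limma adjusted p = 0.00322) and by 0.51 (adjusted p = 0.00199). ATP5F1D, the delta subunit of the rotor, had 2090 and 2290 with ethanol and 2290 and 2340 without in embryoid bodies, against 3310 and 3020 with and 3470 and 3630 without. It fell by 0.53 and 0.61 (adjusted p = 0.00323 and 0.00223). ATP5ME and ATP5F1D were lower on every embryoid body array than on every undifferentiated one. The 3 genes for the ring subunit c, ATP5MC1, ATP5MC2 and ATP5MC3, fell by 0.50, 0.50 and 0.42 with ethanol and by 0.51, 0.37 and 0.33 without. Without _x_at and _s_at probe sets ATP5MC2 was at 0.47 and 0.43. In the catalytic head, ATP5F1A, the alpha subunit, was at -0.28 with ethanol (adjusted p = 0.0305) and -0.02 without, and at 0.12 with ethanol under cyclic loess. ATP5F1B, the beta subunit, was at -0.37 (adjusted p = 0.0122) and -0.20. ATP5IF1 is not a subunit but the inhibitor of ATP hydrolysis by the synthase, and its values of -0.28 and -0.18 were not called.

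**Figure D2:**
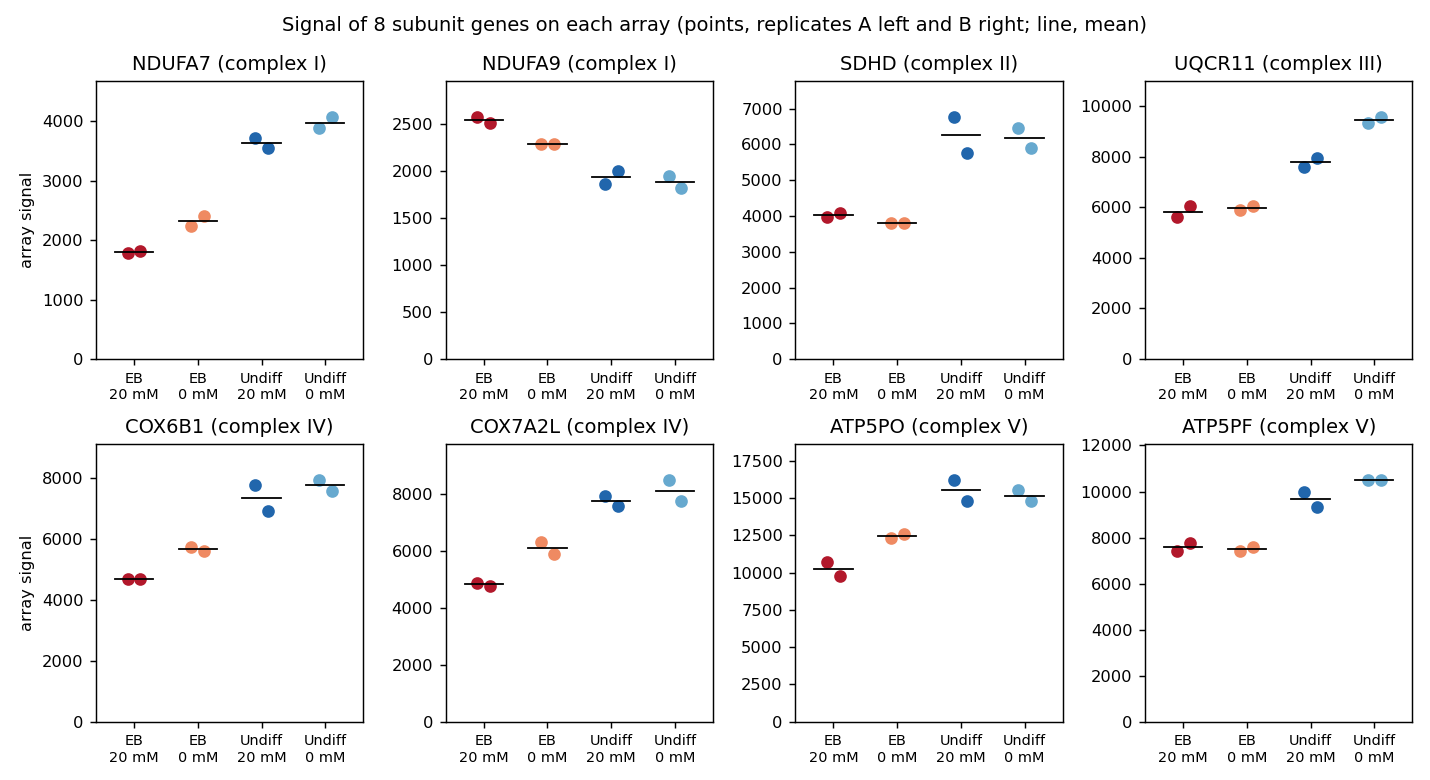
Array signal (y axis, linear from 0) of 8 subunit genes in the 4 groups on the x axis, from embryoid bodies (EB) with 20 mM ethanol on the left to undifferentiated cells with 0 mM on the right. Points are the 2 arrays of a group and lines their mean. NDUFA9 is the one panel with embryoid bodies above undifferentiated cells, and SDHD and ATP5PF show embryoid body groups at similar heights with and without ethanol.

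Ethanol in embryoid bodies moved no subunit gene past the threshold: limma called 0 of 72 members, against 0.071% of all tested genes, 10 in number. At an unadjusted p under 0.05, 25 members were lower and 2 higher, 37.5% of the 72, against 22.3% of all tested genes, 10.4% lower and 11.9% higher. The direction was mostly down, with 64 members below 0, 6 above and 2 at 0, where 47.2% of all tested genes lay below 0. The median log2 change was -0.18, against 0.02 over all tested genes. The change again followed brightness: in the brightest decile the median was -0.18 for members and -0.10 for the other genes, with 46 of 51 members below 0 and 72.4% of the others. In the next decile it was -0.23 for 15 members, all below 0, and -0.08 for the other genes. The arrays with and without ethanol did not overlap for 57 members, 79.2%, against 57.5% of all tested genes. With every array centred on its median signal, which was highest on the embryoid body arrays with ethanol, 66 members were called lower and the median over all tested genes was -0.27.

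Complex medians for ethanol in embryoid bodies were -0.21 for I, -0.15 for II, -0.14 for III, -0.19 for IV and -0.15 for V. NDUFA7 had the smallest adjusted p of the members, 0.0949, on signals of 1780 and 1820 with ethanol against 2240 and 2400 without, a log2 change of -0.37 ± 0.07 (SE). NDUFA8, an accessory subunit of complex I, had 3240 and 3020 with ethanol against 4270 and 3800 without, also -0.37 (limma adjusted p = 0.107). COX7A2L had 4900 and 4790 with ethanol against 6310 and 5890 without, -0.33 (adjusted p = 0.117). NDUFA7, NDUFA8 and COX7A2L thus showed no overlap between the doses while staying outside the threshold.

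In complex II, SDHC had 2000 and 2090 with ethanol against 2450 and 2570 without, a log2 change of -0.30 (limma adjusted p = 0.144), and SDHD had 0.08. SDHA had 1740 on both arrays with ethanol against 1950 and 1910 without, -0.15 (adjusted p = 0.316). In complex III, UQCRB had -0.20 and UQCR10 -0.22, the second on 6460 and 6030 with ethanol against 7240 on both arrays without (adjusted p = 0.211). In complex IV, COX6B1 had 4680 on both arrays with ethanol against 5750 and 5620 without, -0.28 (adjusted p = 0.139). In complex V, ATP5PO had 10700 and 9770 with ethanol against 12300 and 12600 without, -0.28 (adjusted p = 0.149), and ATP5PD had -0.25 (adjusted p = 0.163).

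The members above 0 in embryoid bodies with ethanol were few. NDUFA9 had 2570 and 2510 with ethanol against 2290 on both arrays without, a log2 change of 0.15 (limma adjusted p = 0.296). ATP5F1E, the epsilon subunit, and ATP5PF, coupling factor 6, had 0.03 and 0.02. The 2 values furthest above 0 belonged to dim genes: COX4I2 at 1.0 ± 0.30 (SE, adjusted p = 0.148) and COX6A2 at 0.63. Both lay near the array median, which was itself higher in the ethanol group.

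**Figure D3:**
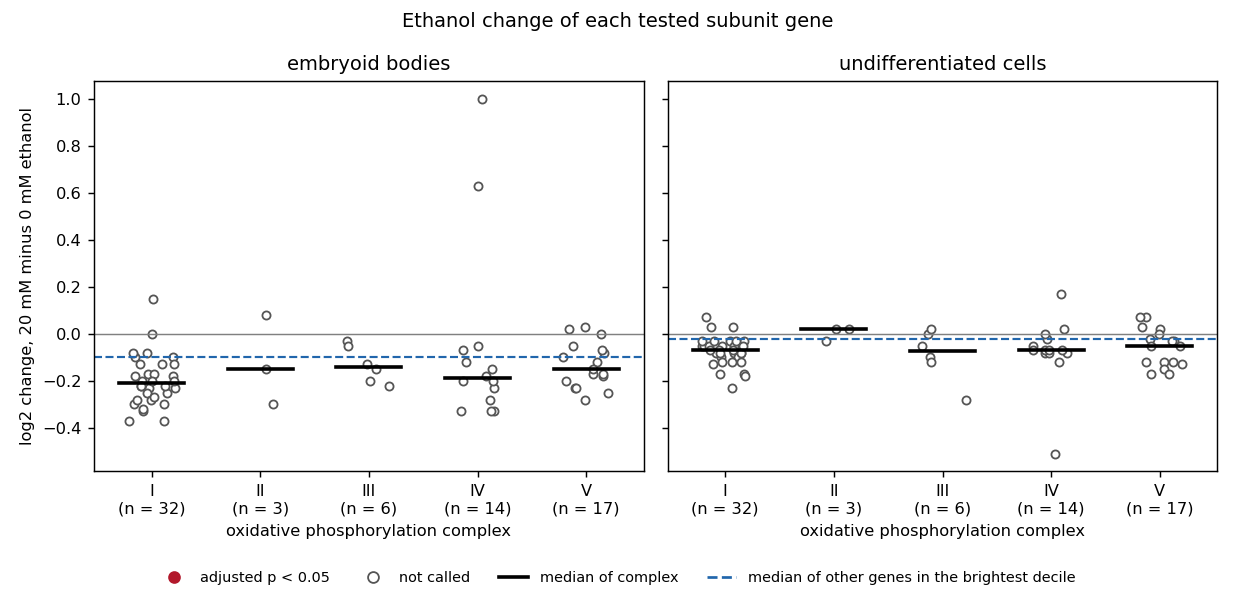
Log2 change of each tested subunit gene, 20 mM minus 0 mM ethanol, in embryoid bodies (left) and undifferentiated cells (right), by complex I to V. Open points were not called, and no point was called. Black bars are complex medians and the dashed line is the median of the 1357 other genes in the brightest decile, -0.10 on the left and -0.02 on the right.

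In undifferentiated cells limma also called 0 of 72 members for ethanol, against 0.0071% of all tested genes, 1 in number. At an unadjusted p under 0.05, 2 members were lower and 0 higher, 2.78% of those tested, against 7.0% of all tested genes, 2.39% lower and 4.61% higher. The median log2 change was -0.07, against 0.02 over all tested genes, with 57 members below 0, 12 above and 3 at 0. In the brightest decile the median was -0.05 for members and -0.02 for the other genes, with 40 of 51 members below 0 and 52.8% of the others. Without ethanol array B the median was -0.02, with 39 members below 0 and 27 above. On the ethanol arrays, A lay above B for 56 members and below it for 13, with a median log2 difference of 0.10, larger than the median ethanol change. Doses did not overlap for 23 members, 31.9%, against 27.5% of all tested genes.

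UQCR11 had the smallest unadjusted p among the members here, on 7590 and 7940 with ethanol against 9330 and 9550 without, a log2 change of -0.28 ± 0.07 (SE, limma adjusted p = 0.502). NDUFV3 had 3550 and 3470 with ethanol against 4270 and 3980 without, -0.23 (adjusted p = 0.702). NDUFA2, an accessory subunit, had 5130 and 4790 with ethanol against 5500 and 5750 without, -0.18 (adjusted p = 0.71). ATP5MJ, a small membrane subunit of complex V, had 10500 and 10000 with ethanol against 11500 on both arrays without, -0.17 (adjusted p = 0.71). Among members above 0, NDUFS1 and ATP5PB, subunit b, each had 0.07 and SDHA and SDHD each 0.02. The complex medians were -0.07 for I, III and IV, 0.02 for II and -0.05 for V.

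The difference between the ethanol effects, embryoid bodies minus undifferentiated cells, was tested in the same fit. Limma called 0 members and 0 genes in all, 0.0% of those tested. At an unadjusted p under 0.05, 1 member was lower, ATP5PO at -0.32 ± 0.12 (SE, adjusted p = 0.366), and 1 was higher, the dim COX6A2 at 0.75, 2.78% of the members against 13.0% of all tested genes, 6.13% lower and 6.85% higher. The median difference was -0.13, against -0.02 over all tested genes, with 55 members below 0 and 15 above. In the brightest decile it was -0.13 for members and -0.10 for the other genes. UQCR11 stood at 0.25 (adjusted p = 0.385) and COX4I1 at -0.35 (adjusted p = 0.385). COX4I1, NDUFA8 and 13 further members fell between the stages with ethanol and were not called without, but this difference itself was called for none of them.

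**Figure D4:**
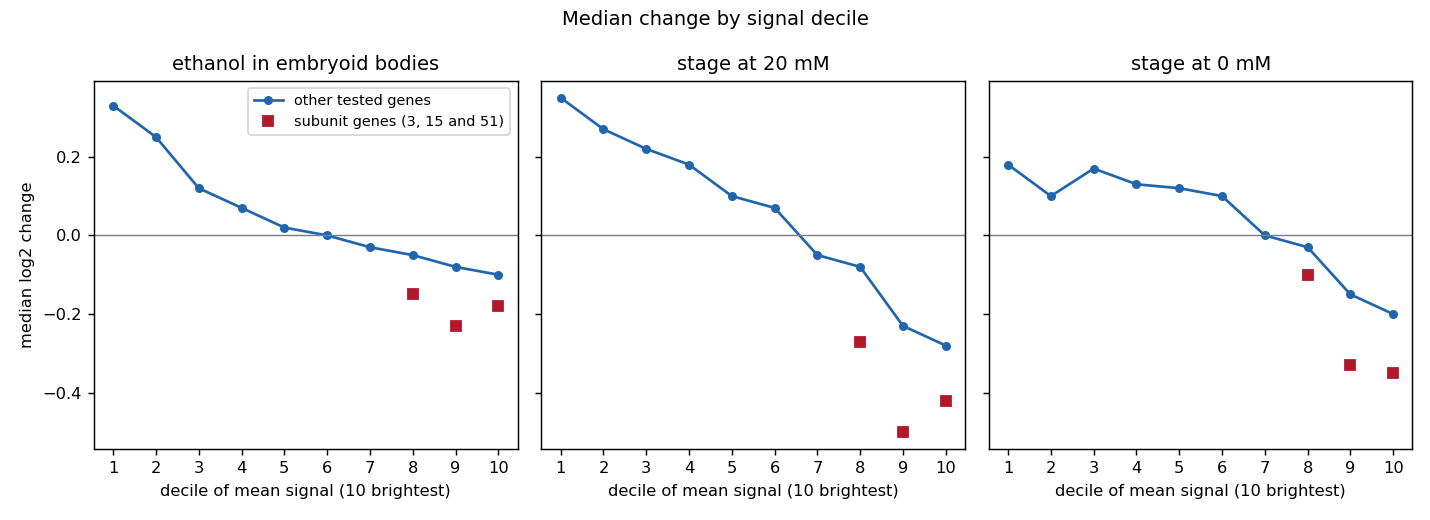
Median log2 change (y axis) by decile of mean signal (x axis, 10 brightest) for other tested genes (circles) and subunit genes (squares, deciles 8 to 10 with 3, 15 and 51 members), for ethanol in embryoid bodies and for the stages, embryoid bodies minus undifferentiated cells, at 20 mM and at 0 mM. The circles fall with brightness, and in deciles 9 and 10 the squares lie below them in all 3 panels, as with -0.42 against -0.28 in decile 10 at 20 mM.

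Genes that serve these complexes were counted from lists chosen for the pathway. Of 18 complex I assembly factors, 14 fell and 1 rose with ethanol and 11 fell and 3 rose without, so that 83.3% and 77.8% were called, against 56.3% and 52.7% of all tested genes. NDUFAF4, one of them, fell by 0.75 and 0.73 (limma adjusted p = 0.000379 and 0.00047). Of 25 complex IV assembly genes, 14 fell and 1 rose in each comparison. The 60.0% called in both lay near the share of all tested genes called in either direction. Nearly all of these calls were lower, while 27.1% and 24.7% of all tested genes were called lower. COA5 was at -1.05 and -1.08 (limma adjusted p = 0.000151 and 0.00016). Of the 4, 6 and 6 assembly genes of complexes II, III and V, 2, 1 and 3 fell with ethanol and 2, 1 and 2 without. The shares called, 50.0%, 33.3% and 50.0% with ethanol and 50.0%, 33.3% and 33.3% without, lay below those of all tested genes called in either direction. For complexes II and V every call was lower, and their shares lay above the 27.1% and 24.7% of all tested genes called lower. BCS1L, which places the iron-sulfur protein into complex III, rose by 1.03 and 0.90 (adjusted p = 0.00136 and 0.0026).

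Among the electron carriers, CYCS, cytochrome c, had 14100 and 13500 with ethanol and 14100 and 14500 without in embryoid bodies, against 22400 and 21400 with and 23400 and 22400 without in undifferentiated cells. It fell by 0.66 and 0.68 (limma adjusted p = 0.000757 and 0.000838). ETFB, part of the electron transfer flavoprotein that serves fatty acid oxidation, rose by 0.73 without ethanol (adjusted p = 0.00138) and by 0.33 with it. Mitochondrial ribosome genes translate the mitochondrially encoded subunits. Of 58, 46 fell and 0 rose with ethanol and 39 fell and 1 rose without, 79.3% and 69.0% called. The shares of all tested genes were 56.3% and 52.7% called, with 27.1% and 24.7% called lower. For ethanol in embryoid bodies the median of these 58 was -0.23, near the subunits' -0.18, and limma called 0 of them. At an unadjusted p under 0.05, 32 were lower and 2 higher, 58.6% of the 58. That p was met by 22.3% of all tested genes, 10.4% lower and 11.9% higher.

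Of 17 regulators of mitochondrial biogenesis, 6 fell with ethanol and 7 without, and 0 rose, with medians of -0.18 and -0.33. The 35.3% and 41.2% called lay below the 56.3% and 52.7% of all tested genes called in either direction. All of these calls were lower, and the shares lay above the 27.1% and 24.7% of all tested genes called lower. TFB1M, which modifies mitochondrial ribosomal RNA, fell by 0.80 and 0.55 (limma adjusted p = 0.000852 and 0.00363). In the citric acid cycle and pyruvate dehydrogenase list, 9 of 17 fell in each comparison and 0 rose. The 52.9% called, all lower, lay near the share of all tested genes called in either direction. It lay above the 27.1% and 24.7% of all tested genes called lower. PDHB, a pyruvate dehydrogenase subunit, was at -0.78 and -0.71 (limma adjusted p = 0.000531 and 0.000832). Glycolysis genes fell too: 15 of 19 genes fell and 2 rose with ethanol, and 13 fell and 2 rose without, with medians of -0.56 and -0.58 and with 89.5% and 78.9% called. HK2, a hexokinase, fell by 1.35 and 1.69 (adjusted p = 0.000279 and 0.000161). Of 11 tested carriers and outer membrane genes, 8 fell with ethanol and 9 without (72.7% and 81.8% called), among them SLC25A4, an ATP and ADP exchanger, by 1.10 and 0.75 (adjusted p = 0.00119 and 0.00546). For ethanol in embryoid bodies limma called 0 genes of any of these lists.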

How the data were processed

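Total RNA of 8 samples was measured on Affymetrix arrays, and the authors deposited 1 table of log10 signals for 54675 probe sets. The scale is read from the values, which have steps of 0.01, run from -1.46 to 4.61 and give every array a mean signal of 500 to 500.1 after 2% of probe sets are trimmed at each end. The labels name RMA, with no version, while these are features of globally scaled signals and not of RMA, so the steps behind the table are not settled. The other steps are not given in the sources used here.

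The deposited log10 values were converted to log2 by a constant factor, with no further normalisation. The table's steps equal 0.033 on the log2 scale. Genes came from the platform's annotation with symbols updated to RefSeq. Of the probe sets, 41097 named 1 gene, 1801 several and 11777 none, and 62 controls were left out. Members had 150 probe sets of their own, 32 with a single one and up to 7 for SDHC. The pseudogenes ATP5MC2P1 and COX6A1P1 and the noncoding NDUFB2-AS1, NDUFV1-DT and NDUFV2-AS1 match the pattern and were left out. NDUFS5, NDUFS8, NDUFC2, SDHB, UQCRFS1 and UQCRH were not analysed here. Whether the probe sets also read RNA of pseudogenes was not tested.

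Limma 3.58.1 in R 4.3.3 was run on the 8 arrays with a mean for each of the 4 groups, leaving 4 residual degrees of freedom beside 1.81 prior ones, and adjusted p over 14079 genes by Benjamini-Hochberg, with 0.05 as threshold. The error given with a log2 change is its standard error (SE). Precision is limited by having 2 arrays a group. On simulated data for ethanol in embryoid bodies with 14079 genes, the fit found 66.6% of changes of size 1 (log2) and 20.7% of size 0.5. Of its calls, 5.41% were false. Smaller changes were not simulated, while members of deciles 9 and 10 lay between -0.37 and 0.08 in this comparison. The members and lists were chosen with earlier results of these data known. Any member could be named, with values by array drawn from the members with the smallest p in each complex, direction and comparison (up to 4 where called) and from the tissue isoforms. Other lists give up to 2 genes with the smallest p. Between groups, the deviations of arrays A (or B) correlated at -0.0263 to 0.0492 over genes, so the letters were not used as pairs. Marker probe sets were also counted above each array's median. Alternatives were other filters, probe set choices, normalisations, variance models, a replicate block and leaving out each array.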

Additional observations from a re-analysis of the deposited data

How the results depend on the processing

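Directions of the 5 medians of members stayed below 0 under every alternative run, but their sizes moved with the scaling and the probe sets. For ethanol in embryoid bodies the median, -0.18, was -0.09 without _x_at and _s_at probe sets, -0.11 with quantile normalisation, -0.47 with median centring and -0.07 with cyclic loess. For ethanol in undifferentiated cells it was -0.20 with median centring, and for the difference of the ethanol effects -0.28 with median centring and -0.03 with cyclic loess. For the stages at 20 mM it was -0.25 with the mean of all probe sets, -0.34 without _x_at and _s_at probe sets, -0.26 with quantile normalisation, -0.83 with median centring and -0.19 with cyclic loess. At 0 mM the same settings gave -0.19, -0.24, -0.19, -0.61 and -0.17. Median centring moved the median of all tested genes to -0.27 for ethanol in embryoid bodies, -0.12 for ethanol in undifferentiated cells, -0.17 for their difference, -0.40 for the stages at 20 mM and -0.25 at 0 mM.

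Members called for ethanol in embryoid bodies, 0 as reported, were 2 with a filter at the 75th percentile, 66 with median centring and 15 with a trended and robust variance, under which 959 of all genes were called; all were lower. For the stages at 20 mM the count of 61 was 34 with the mean of all probe sets, 40 without _x_at and _s_at probe sets (58 members tested) and 30 with cyclic loess. At 0 mM the count of 48 was 31 with the mean of all probe sets, 31 with quantile normalisation and 29 with cyclic loess. Leaving out 1 array gave 46 to 61 members at 20 mM and 25 to 48 at 0 mM, lowest without either embryoid body array at 0 mM; the lone array was then assumed to vary like the other groups. With the replicate block the counts were 61 at 20 mM, 46 at 0 mM and 0 for each ethanol comparison.

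Over the 109 called stage values of members, 1590 alternative values kept the call, 301 lost it and 52 were reversed. Most reversals came with the other choices of probe set, where the value is another probe set's or an average with it. Without _x_at and _s_at probe sets, those standing in for reversed genes had 0.686% (ATP5MC2) to 29.4% (NDUFS1) of the brightest one's signal. Why calls were lost, or why probe sets of a gene differed, was not tested. With the mean of all probe sets, 13 were reversed at 20 mM: ATP5F1E at 0.02, ATP5PD at 0.32, ATP5PO at 0.88, NDUFA5 at 0.70, NDUFA7 at 0, NDUFB1 at 0.27, NDUFB4 at 0.21, NDUFB6 at 0.40, NDUFB8 at 0.22, NDUFV1 at 0.28, SDHD at 0.91, UQCR10 at 0.29 and UQCRC2 at 0.04. At 0 mM 10 were: ATP5F1E at 0.25, ATP5MC2 at 0.03, ATP5PD at 0.51, ATP5PO at 0.85, NDUFA5 at 0.76, NDUFB1 at 0.31, NDUFB4 at 0.69, NDUFB6 at 0.31, SDHD at 0.38 and UQCRC2 at 0.43. Without _x_at and _s_at probe sets, 14 were reversed at 20 mM: ATP5F1C at 1.0, ATP5MC2 at 0.47, ATP5PB at 0.07, ATP5PD at 1.18, COX4I1 at 0.95, NDUFA11 at 1.11, NDUFA6 at 0.0, NDUFB1 at 1.10, NDUFB4 at 0.93, NDUFB6 at 1.36, NDUFB7 at 0.27, NDUFS1 at 0.08, SDHC at 0.02 and UQCR10 at 0.98. At 0 mM 8 were: ATP5MC2 at 0.43, ATP5PD at 1.33, COX5B at 0.20, NDUFA11 at 1.06, NDUFA6 at 0.22, NDUFB1 at 0.96, NDUFB4 at 1.73 and NDUFB6 at 1.11. With cyclic loess 6 were reversed at 20 mM, ATP5F1A at 0.12, ATP5F1C at 0.01, ATP5F1E at 0.02, ATP5PB at 0, COX7A2 at 0.03 and UQCRQ at 0.03, and with median centring NDUFA9 was at -0.02. Among 18 members with several probe sets of at least 25% of the brightest, all of these had the same sign in 17 at 20 mM, 17 at 0 mM, 14 for ethanol in embryoid bodies and 11 for ethanol in undifferentiated cells.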
